A study of Mus musculus with 30 samples.

Results

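The transcripts of the newborn female hypothalamus were compared 1 h after injection of oil or of estradiol benzoate (EB, an ester that releases estradiol), from the 3 EB-Mice_T1 arrays and the 3 Oil-Mice_T1 arrays, which are 6 of the 30 arrays of the series. The mice were C57BL/6J females of about 1.4 g body weight, injected under the skin on the day of birth with 7.5 µg EB in 20 µl peanut oil or with the oil alone, and the whole hypothalamus of each was taken 1 h later. Each array held the RNA of 1 mouse on a GeneChip Mouse Genome 430 2.0 array, and the other 24 arrays hold the same 2 treatments at 3, 6, 12 and 24 h (3 mice per group). No untreated mice were included, and the sources used here do not give the litter of each mouse, so a p-value measures only the spread between these mice. Values are MAS5 signals, 1 per probe set (a group of probes for 1 transcript), brought to a common array median (the mean of the 30 medians). EB values are given in the order of replicates 1, 2 and 3, and so are oil values.

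Estradiol acts through nuclear receptors, chiefly the product of Esr1 in the hypothalamus, which bind DNA at estrogen response elements or act with other transcription factors, and through receptors at the membrane that start kinase signals. Immediate early genes, such as Fos and Egr1, are transcribed within minutes of neuronal activity, handling, stress or growth factor signals, while most targets of nuclear receptors accumulate over hours. In the rodent brain around birth, estradiol made from testicular androgen directs the sexual differentiation of hypothalamic cell groups, and a female given EB at birth is a model of that exposure.

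The median deposited signal was 35.6, 36.2 and 39.1 on the EB arrays and 36.4, 38.7 and 43.8 on the oil arrays (exact two-sided permutation p = 0.4, where the smallest possible for 3 against 3 is 0.1). The 3′ to 5′ signal ratio of the Actb control probe sets, a sign of RNA integrity, ranged from 1.27 to 1.34 with EB and from 1.27 to 1.37 with oil. That of Gapdh was 0.690, 0.683 and 0.690 with EB and 0.648, 0.669 and 0.662 with oil, without overlap (exact p = 0.1), and the 3′ probe set for 18S ribosomal RNA read 819, 1125 and 892 against 739, 695 and 666 (exact p = 0.1). The middle 18S probe set read 362, 424 and 363 against 361, 336 and 317 (exact p = 0.1). The 5′ one overlapped, at 1291, 1637 and 1214 against 1540, 1208 and 1132 (exact p = 0.5). The part of these control differences in the results was not tested. Of the 28 transcription factors listed as hypothalamic, 24 were measured, with Otp between 998 and 1345 on the 6 arrays, and Pmch, the peptide of lateral hypothalamic neurons, between 653 and 1307. The pituitary hormone genes Gh, Prl and Cga stayed at or under 18.3 on every array and were left out as dim.

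One hour after EB, 1 of 27022 probe sets passed the test (adjusted p under 0.05 from limma), which is 0.0037% of those tested, and it was lower. No probe set with a gene symbol passed. At an unadjusted p under 0.05 there were 1450 probe sets higher (5.37%) and 882 lower (3.26%), and 16 (6 higher and 10 lower) had an adjusted p under 0.1. The 3 EB arrays lay wholly above the 3 oil arrays for 2825 probe sets (10.5%) and wholly below for 1931 (7.15%). The median log2 fold change over all probe sets was 0.02, or -0.07 without scaling of the arrays, and each value below shifts by this difference in that setting. By the ratio of group means, 25 probe sets were at 2-fold or more (0.0925%) and 11 at 0.5-fold or less (0.0407%). The count of calls rests on single arrays and settings: it was 10 without EB replicate 2 and 3 without oil replicate 1. It was 0 without EB replicate 1 or oil replicate 2, 1 (a probe set of Prpf19) without EB replicate 3, 2 (other probe sets) without oil replicate 3, and 47 when the arrays were weighted.

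The probe set that passed was 1454566_at, which carries no gene symbol in the annotation used here. Its signals were 6.49, 33.7 and 13.1 with EB and 62.9, 81.6 and 85.7 with oil. All 3 EB arrays lay below all oil arrays, and below the lowest of the 24 arrays of later times, at 35.7. The log2 fold change was -2.42 (standard error 0.39, adjusted p = 0.026 from limma). Its effect differed from that at 24 h, which was 0.21, by 2.63 on the log2 scale (adjusted p = 0.017 from limma). That difference reuses the value at 1 h for which the probe set was named, so it is no separate support. The call was lost in limma without EB replicate 1 (adjusted p = 0.12), without EB replicate 3 (0.091), without oil replicate 2 (0.11) or 3 (0.092), with the 6 arrays of 1 h alone (0.073), with log2(signal + 16) (0.057), and with robust (0.079) or untrended (0.066) moderation. Its log2 fold change stayed between -3.04 and -1.53 in every limma setting whose filter left it in.

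The next largest decrease in signal, which did not pass, was in Pisd-ps3, a pseudogene of Pisd, the mitochondrial enzyme that makes phosphatidylethanolamine. Probe set 1453145_at read 312, 546 and 179 with EB and 1023, 1063 and 1029 with oil. The 3 oil arrays were close together and every EB array was lower, but the EB arrays differed widely from each other. The log2 fold change was -1.73 (standard error 0.36, adjusted p = 0.088 from limma). Another probe set of this pseudogene, 1453144_at, read 71.2, 155 and 23.0 against 292, 327 and 346, a log2 fold change of -2.34 (adjusted p = 0.088). All 12 measured probe sets listed for Pisd or its pseudogenes had values below 0, from -2.34 to -0.01 with a median of -0.93, and in 9 of them the groups did not overlap. These near-identical copies share sequence, so the 12 values are not independent, and the probe set for Pisd itself, 1460585_x_at, was at -0.01 (719.9, 753 and 616 with EB, 688, 788 and 626 with oil). Low readings of 1453145_at also occurred at other times, at 286 in oil replicate 1 at 3 h, against a median of 822 over the 24 later arrays. Across those 24 arrays, which the comparison at 1 h did not use, 1454566_at and 1453145_at deviated from their group means together (Pearson r = 0.70, permutation p = 0.00018, and Spearman rho = 0.71, p = 0.00019, with the log2 signals themselves as the other of 2 relations computed, adjusted p = 0.00018 and 0.00019), with r = 0.69 without the 2 farthest arrays. This pair was chosen after its values at 1 h were seen.

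**Figure D1:**
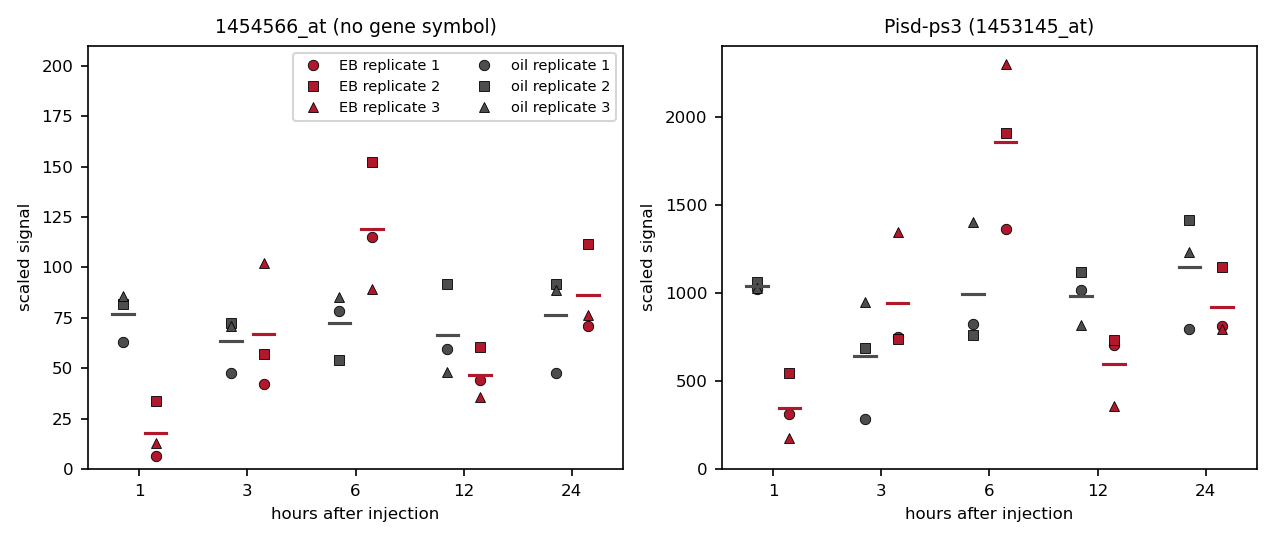
Scaled signal (y axis, linear, starting at 0) of 1454566_at and of Pisd-ps3 (1453145_at) in all 30 arrays against hours after injection (x axis), with red for EB, grey for oil, a marker shape per replicate and a bar at each group mean. At 1 h the EB arrays lie at 6.49 to 33.7 against 62.9 to 85.7 for the first probe set and at 179 to 546 against 1023 to 1063 for the second, and no array of a later time reads below 35.7 for the first.

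Among genes with higher signals, the log2 fold change furthest from 0 was that of Egr3, a zinc finger transcription factor of the immediate early class, though the order changed without 1 EB array. It read 38.6, 183 and 32.5 with EB and 20.6, 10.9 and 17.6 with oil, so the groups did not overlap and EB replicate 2 stood far above all others. Its log2 fold change was 1.96 (standard error 0.48, adjusted p = 0.18 from limma) and 1.17 without EB replicate 2, below the 1.98 of Plekhh3 without that array. The oil signals of both genes lay under 21.9 in all 3 arrays, the mean level below which probe sets were left out. Aldh1a1, which makes retinoic acid and marks meningeal fibroblasts and some neurons, read 63.3, 222 and 64.3 against 38.9, 31.4 and 23.0, with the same array highest, and went from 1.67 (standard error 0.41, adjusted p = 0.18) to 1.07 without it. Plekhh3 differed more evenly, at 41.4, 31.2 and 41.4 against 8.22, 13.6 and 10.4, or 1.84 on the log2 scale (standard error 0.38, adjusted p = 0.088). Ang, the secreted ribonuclease angiogenin, read 104, 74.8 and 92.5 against 48.9, 41.5 and 48.4 (0.96, standard error 0.18, adjusted p = 0.064). Bola2, a factor of iron-sulfur cluster handling, read 46.0, 64.0 and 41.9 against 30.8, 21.3 and 22.8, and Evi2a 50.5, 24.96 and 27.8 against 13.2, 19.1 and 9.92, with log2 fold changes of 1.02 and 1.27 (adjusted p = 0.088 each).

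The other genes with the largest higher values were 2 organic anion transporters, Slco1a4 (1.45), which is known from brain endothelium, and Slco4c1 (1.09), the lysozyme gene Lyz1 (1.31), the synaptonuclear protein gene Nsmf (1.19), C230057M02Rik (1.09), the neurturin receptor gene Gfra2 (1.08), Trim30a (1.04), the cytokine gene Il33 (0.98) and the adaptor gene Traf1 (0.97). None passed, and their adjusted p ranged from 0.11 for Slco4c1 to 0.41 for Traf1. Most of these signals were dim, and outside Nsmf, Gfra2, Ang and Aldh1a1 the oil means of the 15 genes ran from 7.56 for Traf1 to 24.98 for Bola2. The rule that picked these genes required groups without overlap and an unadjusted p under 0.01, which 372 probe sets (1.38%) met in the higher direction and 223 (0.825%) in the lower, so that their separation is a description. Other probe sets were kept for 5 of the 15 higher genes, and 9 of those 12 were above 0, with a median of 0.07.

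Among genes with lower signals, the values nearest to the threshold were those of Fbxo36, an F-box protein gene, at 92.8, 87.0 and 84.0 with EB and 134, 132 and 135 with oil. The arrays of each group were close together and did not overlap, and the log2 fold change was -0.61 (standard error 0.11, adjusted p = 0.052 from limma), or -0.64 to -0.57 when each array was left out. Cabin1, an inhibitor of calcineurin, read 42.7, 46.8 and 38.0 against 76.2, 79.7 and 75.4 (-0.86, standard error 0.16, adjusted p = 0.064). Zfhx3, a transcription factor gene, read 137, 123 and 113 against 249, 202 and 237 (-0.88, standard error 0.17, adjusted p = 0.088). Atg12, a ubiquitin-like protein of autophagy, read 51.9, 51.5 and 42.1 against 103, 98.8 and 91.5 (-1.02, adjusted p = 0.25), and Caprin1, an RNA granule protein, read 43.3, 31.7 and 32.4 against 74.97, 78.2 and 63.1 (-1.02, adjusted p = 0.15). Brighter probe sets of Cabin1 (0.04), Zfhx3 (-0.16 to 0.05), Atg12 (-0.09) and Caprin1 (-0.00 to 0.30) showed no decrease of this size. That of Caprin1 at 0.30 was higher without overlap. Dimmer probe sets of Zfhx3 and Cabin1 were at -0.35 and -0.14. The decreases thus belong to single probe sets of these 4 genes.

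**Figure D2:**
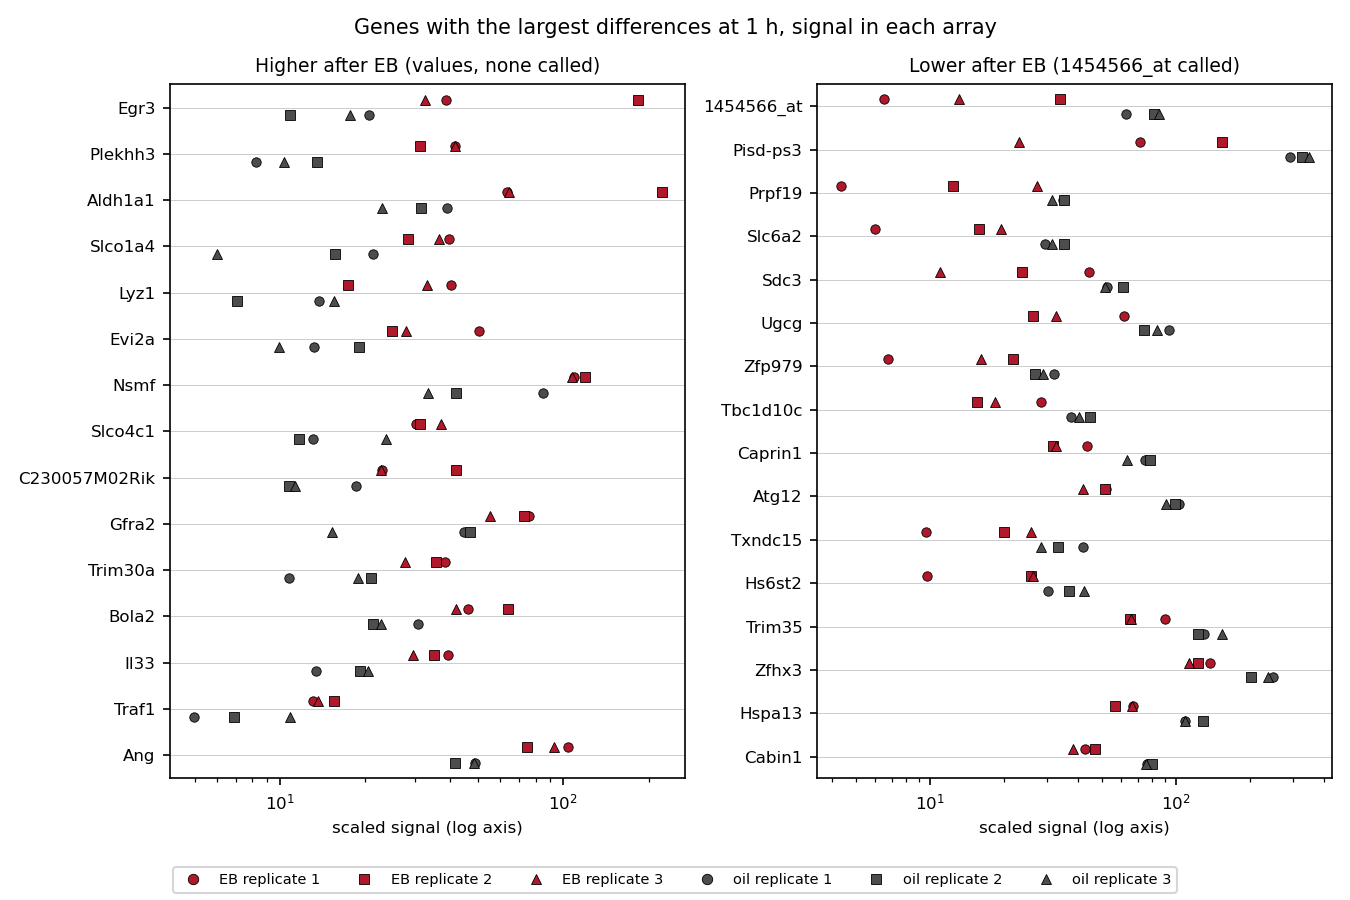
Scaled signal (x axis, log scale) in each of the 6 arrays at 1 h for the 15 genes with the largest higher values (left) and for 1454566_at and the 15 genes with the largest lower values (right), with red for EB, grey for oil and a marker shape per replicate. The groups do not overlap because the rule required it, EB replicate 2 is far to the right for Egr3 (183) and Aldh1a1 (222), and 1454566_at is the only one that passed.

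The rest of the 15 lower genes were Prpf19 (-1.57), a splicing factor gene, Slc6a2 (-1.38), the noradrenaline transporter gene, Sdc3 (-1.28), a syndecan gene, Ugcg (-1.16), the enzyme of glucosylceramide synthesis, Zfp979 (-1.12), Tbc1d10c (-1.02), Txndc15 (-0.99), Hs6st2 (-0.95), a heparan sulfate sulfotransferase gene, Trim35 (-0.89) and Hspa13 (-0.87), a member of the Hsp70 family. None passed, with adjusted p from 0.11 for Trim35 to 0.41 for Txndc15. Other probe sets of the same genes were mixed: 33 were kept for 12 of the 15 lower genes, of which 16 were below 0 and 17 above, with a median of 0.01. The brightest probe set of Trim35 was at -0.02. The other Pisd-ps3 probe sets with this symbol alone were all lower without overlap, from -1.82 to -0.88. A brighter probe set of Ugcg read 195, 217 and 229 with EB and 266, 267 and 284 with oil (-0.35, adjusted p = 0.25 from limma), also without overlap, and the remaining one of Ugcg was at 0.11.

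Most immediate early genes had a log2 fold change above 0, with 1 EB mouse far above the rest. Of 38 listed, 30 were measured, 26 of them above 0 (63.4% of all genes were), and 7 were higher at an unadjusted p under 0.05 against 6.42% of all genes. None passed after adjustment. The median log2 fold change was 0.19, against 0.05 over all genes. In other mice, the 3 h median of this list was 0.18, close to the 1 h value. The 12 h median was 0.12, while those of 6 and 24 h were -0.06 and -0.08. Egr1 read 678, 2785 and 683 with EB and 1018, 369 and 402 with oil, Fos, a subunit of AP-1, read 518, 1584 and 430 against 611, 291 and 314, and Nr4a1, an orphan nuclear receptor, read 227, 396 and 256 against 242, 166 and 162. In all 3, EB replicate 2 was the highest array, oil replicate 1 was higher than the other oil arrays, and the groups overlapped. EB replicate 2 was the highest of the 6 arrays for 22 of the 30 genes. The mean centred log2 level of the 30 genes was 0.04, 0.48 and -0.07 with EB and -0.005, -0.24 and -0.21 with oil. EB replicate 3 thus lay below oil replicate 1.

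Without EB replicate 2, Egr1 went from 1.03 to 0.35, Fos from 0.89 to 0.31 and Nr4a1 from 0.61 to 0.37, and the median of the list from 0.19 to 0.09. Klf4, a Krüppel-like factor, read 249.5, 482 and 316 against 252, 132 and 144, which is 1.00 on the log2 scale (adjusted p = 0.32 from limma, standard error 0.30) and 0.74 without that array. Klf6 read 519, 730.4 and 482 against 476, 461 and 461 (0.28, adjusted p = 0.43). Npas4, which follows neuronal calcium entry, was close between groups at 58.4, 63.6 and 56.2 against 52.1, 47.2 and 53.6 (0.22, adjusted p = 0.80). Jun had lower values with EB, at 333, 368 and 295 against 417, 389 and 392 (-0.27, adjusted p = 0.70).

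**Figure D3:**
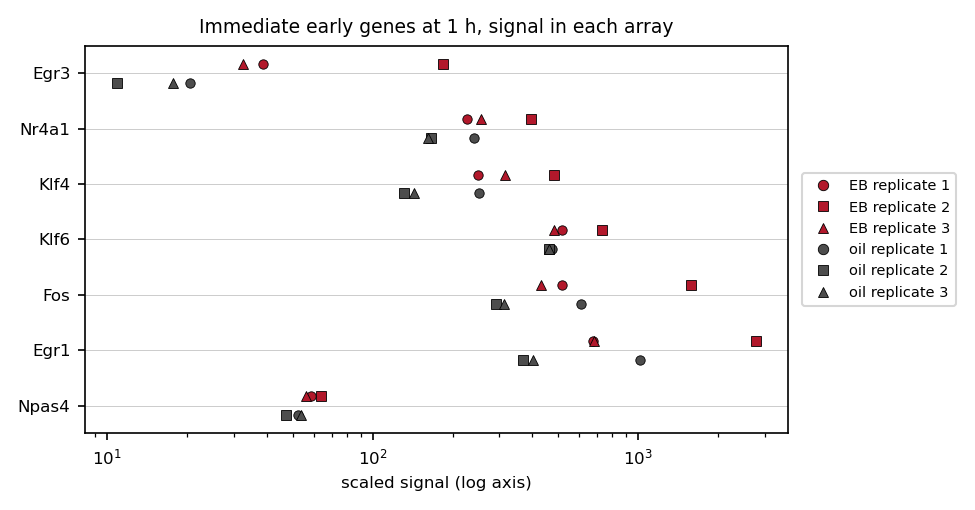
Scaled signal (x axis, log scale) of 7 immediate early genes in the 6 arrays at 1 h, with red for EB, grey for oil and a marker shape per replicate. EB replicate 2 (square) is the highest array for all 7, at 2785 for Egr1 and 1584 for Fos, and oil replicate 1 (grey circle) reads higher than both other EB arrays for Egr1 and Fos.

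Promoter windows from RefSeq (GRCm38.p6, from 250 bases before to 50 after each start) were searched on both strands for the cAMP response element TGACGTCA, which binds CREB and for the consensus estrogen response element. The first was in the windows of 3 of the 24 measured immediate early genes that had one, 12.5% against 2.03% of 27025 genes. These 3 were Btg2, an antiproliferative gene, Dusp1, a MAP kinase phosphatase, and Maff, a small Maf factor, and they are shown with 30 bases around the element in capitals because they are the members of this list that hold it.
Btg2: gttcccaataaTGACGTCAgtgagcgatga
Dusp1: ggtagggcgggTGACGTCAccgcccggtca
Maff: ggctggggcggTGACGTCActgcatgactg
The stretches lie at chr1:134079303-134079332 on the minus strand, chr17:26508597-26508626 on the minus strand and chr15:79347480-79347509 on the plus strand, with the first base of the element 166, 143 and 29 bases before the start. Dusp1 read 432, 562 and 328 with EB and 427, 384 and 346 with oil, Btg2 165, 224 and 163 against 167, 179.9 and 138, and Maff 52.3, 60.2 and 33.6 against 36.6, 33.6 and 29.4. In all 3 genes the groups overlapped and EB replicate 2 was the highest array, and the log2 fold changes of 0.16, 0.18 and 0.52 did not pass (adjusted p from 0.71 to 0.83). The estrogen response element was in none of these windows, in none of the 10 measured estrogen-responsive genes or 5 receptors with a window, and in none of the 10 higher and 9 lower genes above that had one, against 0.074% of all genes.

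The estrogen receptor gene Esr1 did not differ detectably, at 104, 45.4 and 78.1 with EB and 67.4, 82.2 and 66.6 with oil (log2 fold change -0.00, standard error 0.21, adjusted p = 1.00 from limma). EB replicates 1 and 2 were the highest and the lowest of the 6 arrays. Pgr, the progesterone receptor gene and the best known hypothalamic target of estradiol, read 115, 115 and 125 against 105, 87.7 and 83.9. The groups did not overlap, and the log2 fold change of 0.36 (standard error 0.14) did not pass (adjusted p = 0.45). Esrra, an orphan receptor related to Esr1, read 58.2, 61.5 and 60.1 against 39.2, 52.0 and 45.9 (0.40, adjusted p = 0.58), and Gper1, a membrane receptor for estrogen, 34.5, 18.1 and 41.6 against 43.4, 37.1 and 48.0 (-0.52, adjusted p = 0.55). Esr2 was too dim to be tested, between 2.43 and 12.7 on the 6 arrays.

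Of 18 estrogen-responsive genes listed, 14 were measured, 7 were above 0 and 7 below, and the median was -0.01 (0.05 over all genes). Pgr was the only one with an unadjusted p under 0.05. Greb1 read 21.6, 30.6 and 23.1 against 25.8, 30.8 and 31.5 (-0.24, adjusted p = 0.79), Myc 183, 209 and 185 against 167, 175 and 162 (0.19, adjusted p = 0.71), and Ctsd, the cathepsin D gene, 651, 643 and 675 against 590.1, 634 and 605 (0.11, adjusted p = 0.71). Myc and Ctsd did not overlap between groups, while Greb1 did. Among 17 feedback genes of the ERK kinase pathway the median was 0.15, and it was 0.16 in the mice of 3 h. Later medians of this list were -0.06 (6 h), -0.002 (12 h) and -0.01 (24 h). Spry2 read 195, 192 and 195 against 177, 147 and 165 (0.25, adjusted p = 0.53 from limma). Phlda1 read 446, 439.8 and 434 against 386, 381 and 372 (0.21, adjusted p = 0.56), and both genes were without overlap. The 18 glucocorticoid-responsive genes, which follow stress, had a median of 0.06 and 0 with an unadjusted p under 0.05, and Fkbp5 read 409.7, 386 and 412 against 391, 458 and 369 (-0.01). Of these 18 genes, 3 were lower without overlap (4.29% of all genes) and 0 were higher without overlap (12.8% of all genes).

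Microglia and border macrophage markers had the highest median of the lists. All 15 measured, of 17 listed, had values above 0, with a median of 0.51, 7 were higher at an unadjusted p under 0.05 (6.42% of all genes) and 8 did not overlap (12.8% of all genes). None passed after adjustment. Csf1r, the receptor that keeps microglia alive, read 484, 388 and 508 with EB and 292, 280.3 and 322 with oil, which is 0.62 on the log2 scale (adjusted p = 0.18 from limma, standard error 0.15). C1qa, a complement subunit, read 181, 143 and 192 against 139, 95.6 and 109 (0.59, adjusted p = 0.22), Aif1, an actin-binding protein of microglia, 34.0, 26.5 and 35.8 against 18.1, 15.9 and 20.7 (0.81, adjusted p = 0.45), and Cd68, a lysosomal protein, 50.7, 41.0 and 59.9 against 33.9, 33.7 and 36.04 (0.53, adjusted p = 0.45). In all 4, every EB array was above every oil array and EB replicate 2 was the lowest EB array. The mean centred log2 level of the 15 genes was 0.38, 0.07 and 0.36 with EB and -0.26, -0.40 and -0.15 with oil. In whole tissue, more cells of a type and more RNA per cell, or fewer and less, cannot be told apart. At 3 h the median of the same genes was 0.07.

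Astrocyte and radial glia markers had a median of 0.23 over 15 genes, of which 4 were higher at an unadjusted p under 0.05 (6.42% of all genes). Aqp4, the water channel of astrocyte endfeet, read 337, 279.8 and 338 against 234, 191 and 215 (0.58, standard error 0.16, adjusted p = 0.31 from limma), without overlap. Gja1, connexin 43, read 2306, 1899 and 2340 against 1972, 1492 and 1338 (0.46, adjusted p = 0.38), where EB replicate 2 lay below oil replicate 1. Aldoc (0.25) and Slc1a2 (0.23), a glutamate transporter, did not overlap either, while Vim, Sox9, Nes and Aldh1l1 were between -0.05 and -0.00.

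**Figure D4:**
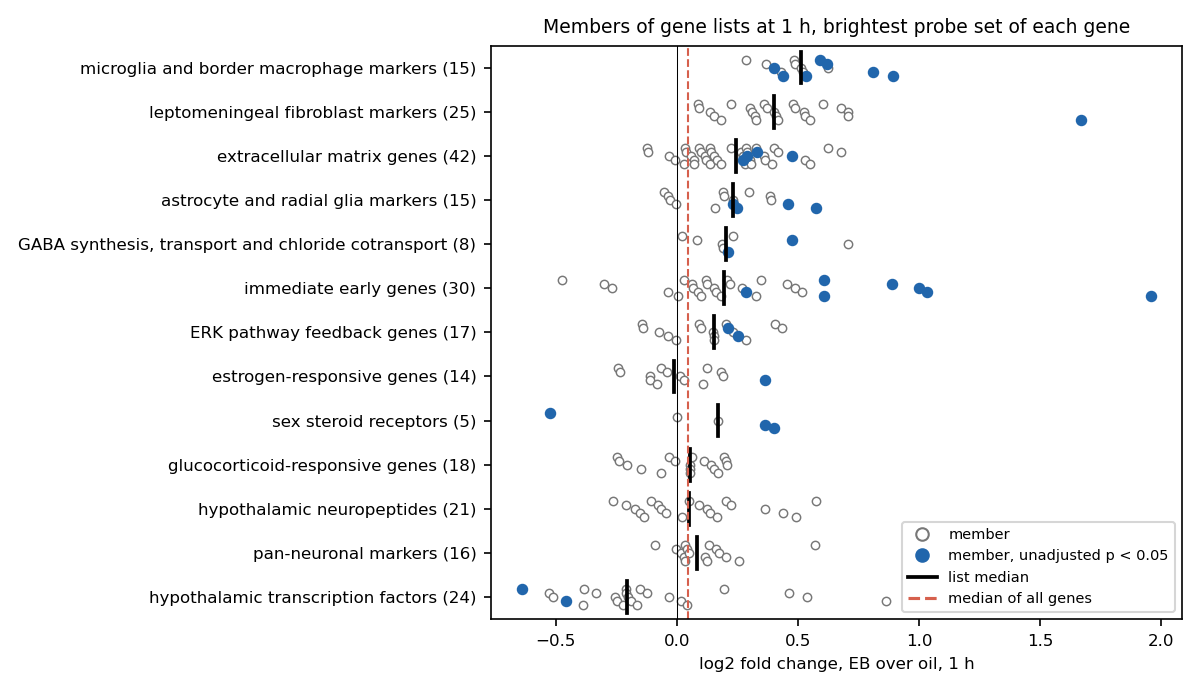
Log2 fold change at 1 h (x axis, EB over oil) of the members of 13 gene lists (y axis, number measured in brackets), each gene by its brightest probe set, with filled points for an unadjusted p under 0.05, a black bar at the list median and a dashed line at the median of all genes (0.05). The microglia and border macrophage list lies highest with a median of 0.51, the hypothalamic transcription factors lowest with -0.21, and no member passed after adjustment.

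All 25 measured leptomeningeal fibroblast markers, which are genes of the thin inner meninges, also had values above 0, with a median of 0.40, but only Aldh1a1 had an unadjusted p under 0.05. Islr read 280.4, 199 and 263 with EB and 197, 189.6 and 131 with oil (0.53, adjusted p = 0.67 from limma), Lum, a collagen-binding proteoglycan, 99.9, 58.6 and 66.3 against 63.1, 43.2 and 47.5 (0.53, adjusted p = 0.71), and Ptgds, prostaglandin D synthase, 8011, 6385 and 7602 against 7481, 6115 and 3574 (0.42, adjusted p = 0.88). The mean level of the 25 genes was 0.36, -0.06 and 0.37 with EB and 0.07, -0.30 and -0.43 with oil, so that oil replicate 1 lay above EB replicate 2. Later medians of these genes, in other mice, changed sign, with -0.18 (3 h), -0.41 (6 h), 0.55 (12 h) and -2.26 (24 h). The 12 h median was thus above the 1 h median. The effects at 24 h and 1 h differed for 19 of the 25 (adjusted p under 0.05 from limma, 0.995% of all probe sets). Of 42 extracellular matrix genes, which include collagens and proteoglycans of that list such as Col1a1, Dcn and Lum, 38 were above 0 (63.4% of all genes) with a median of 0.24, and 4 were higher at an unadjusted p under 0.05 (6.42% of all genes), which were Bcan (0.27), Sparc (0.33), Col4a2 (0.29) and Vtn (0.48). The part of meningeal and glial tissue in the other results was not tested.

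Hypothalamic transcription factors had the lowest median of the lists, -0.21 over 24 genes, with 18 below 0 (36.6% of all genes), 7 without overlap in that direction (4.29% of all genes) and 2 lower at an unadjusted p under 0.05 (1.62% of all genes). None passed. Vax1, which patterns the ventral forebrain, read 249, 218 and 241 with EB and 295, 358 and 319 with oil, which is -0.46 on the log2 scale (adjusted p = 0.29 from limma, standard error 0.13). Hmx3 read 40.6, 27.2 and 42.4 against 67.6, 42.3 and 61.7 (-0.64, adjusted p = 0.46), and its neighbour Hmx2 31.6, 28.9 and 28.7 against 35.5, 45.7 and 36.2 (-0.39, adjusted p = 0.63). Dlx2, a factor of GABA neuron precursors, read 292, 298 and 318 against 352, 370.5 and 327 (-0.21, adjusted p = 0.65). Vax1, Hmx2 and Dlx2 did not overlap, while EB replicate 3 was just above oil replicate 2 for Hmx3. Lhx8, a factor of the basal forebrain, was the highest of the list at 0.87 (326, 278 and 417 against 321, 105 and 185, adjusted p = 0.84).

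The peptides of mature hypothalamic neurons stood on both sides of 0, with 12 of 21 above and a median of 0.05. Hcrt, the orexin gene, read 132, 127 and 95.0 with EB and 76.0, 65.2 and 97.1 with oil (0.58, adjusted p = 0.67 from limma), Pmch 1036, 1307 and 937 against 653, 722 and 968 (0.49, adjusted p = 0.62), and Sst 552, 519 and 497 against 447, 465 and 430.2 (0.22, adjusted p = 0.60). Hcrt and Pmch overlapped through oil replicate 3 and Sst did not overlap. Of 8 genes of GABA synthesis and transport, all were above 0, with Slc32a1, the vesicular GABA transporter, at 527, 471 and 547 against 409.8, 326 and 378 (0.48, adjusted p = 0.48) and Slc12a5, the chloride exporter KCC2, at 3662, 3851 and 3621 against 3238, 3330.1 and 3048 (0.21, adjusted p = 0.47). Both were without overlap. Shank3, a scaffold of excitatory synapses, read 249, 223 and 209 against 157, 143 and 186 (0.49, adjusted p = 0.35), and the nuclear RNA Neat1 126, 118 and 105 against 74.6, 64.5 and 74.7 (0.71, adjusted p = 0.43), both without overlap. Pan-neuronal markers (median 0.08 over 16), heat shock genes (0.04 over 14), clock genes (0.02 over 19), splicing regulators (-0.01 over 34) and cell cycle genes (0.01 over 20) were close to the median of all genes.

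Genes of the mitochondrial respiratory chain had slightly higher values, with 65 of 73 above 0 (63.4% of all genes), 8 at an unadjusted p under 0.05 (6.42% of all genes) and a median of 0.08. Without scaling this median was at -0.01. Cox6b2, a cytochrome oxidase subunit gene, read 121, 120.4 and 110.2 with EB and 74.7, 81.5 and 85.6 with oil (0.54, adjusted p = 0.47 from limma), and Uqcr11, a subunit of the bc1 complex, 1389, 1269 and 1248 against 1143, 1125 and 1078 (0.22, adjusted p = 0.35). Both were without overlap. EB replicate 2 was the highest array for 49 of the 73 genes and oil replicate 3 the lowest for 38. The cytosolic ribosomal protein genes, 36 of 42 above 0 with a median of 0.05, had the same pair of arrays at their ends, highest in EB replicate 2 for 23 and lowest in oil replicate 3 for 29.

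Genes that act on steroids or on the DNA methylation known to mark the newborn hypothalamus included a few that were higher without overlap between groups. These were 2 of 8 steroid synthesis genes and 2 of 23 DNA methylation and deacetylase genes, against 12.8% of all genes. Their separation is thus a description of single genes and no result about the lists. Hsd17b10, a hydroxysteroid dehydrogenase of mitochondria, read 548, 535 and 487 with EB and 418, 451 and 474 with oil (0.22, adjusted p = 0.57 from limma), and Hsd17b4, of peroxisomes, 434, 413 and 437 against 356, 372 and 392 (0.20, adjusted p = 0.57). Dnmt3b, a DNA methyltransferase, read 62.7, 52.7 and 52.4 against 35.4, 34.3 and 36.6 (0.65, adjusted p = 0.43), and Hdac1, a histone deacetylase, 405, 375 and 414 against 346, 329 and 337 (0.24, adjusted p = 0.39). In all 4, every EB array was above every oil array. Over the 23 DNA methylation and deacetylase genes the median was 0.02, and over 8 steroid synthesis genes 0.18. Prostaglandin synthesis and receptor genes had 8 of 9 above 0 and a median of 0.32, led by Ptger3, a prostaglandin E receptor gene, at 34.2, 33.8 and 33.1 against 30.03, 21.5 and 24.1 (0.43, adjusted p = 0.60).

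In the remaining lists, a few members were without overlap between groups. Higher were 2 of 19 clock genes (12.8% of all genes), and lower were 3 of 34 splicing regulators and 1 of 13 nuclear RNAs (4.29% of all genes). In the opposite direction there were 0, 4 and 3, so the members below are single values. Cry2, a repressor of the circadian clock, read 161, 198 and 172 with EB and 114, 148 and 138 with oil (0.41, adjusted p = 0.37 from limma). Srsf10, a splicing factor, read 467, 510 and 626 against 631, 694 and 746 (-0.38, adjusted p = 0.46), and the nuclear RNA Malat1 7798, 8788 and 8680 against 9909, 9808 and 9007 (-0.19, adjusted p = 0.62). All 3 were without overlap. Endothelial markers had a median of 0.18 over 15, with Slco1a4 at 39.6, 28.4 and 36.3 against 21.4, 15.7 and 5.99 while Mfsd2a, a lipid transporter of the same cells, was at -0.16. Mural cell (0.11 over 10), oligodendrocyte (0.18 over 11) and ependymal markers (0.17 over 12) had at most 1 member with an unadjusted p under 0.05. Of the 12 erythroid markers none was bright enough on a probe set of its own, and the haemoglobin probe set shared by the beta globin genes read 2830, 4670 and 2114 against 3170, 3189 and 3554 (-0.12), with EB replicate 2 the highest.

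Most probe sets that passed at 3 h, in other mice, had a smaller difference of the same sign at 1 h. Of the 102 called lower at 3 h (0.377% of all), 100 were below 0 at 1 h (98.0%, against 43.7% of all probe sets), 70 had EB arrays wholly below oil arrays (68.6%, against 7.15%) and 52 were lower at an unadjusted p under 0.05 (51.0%, against 3.26%), but 0 passed after adjustment in limma. The median at 1 h was -0.30, with quartiles of -0.42 and -0.20, against -0.79 at 3 h, and each of the 102 was nearer to 0 at 1 h. The exceptions above 0 were probe sets of Get1 (0.29) and Kdelr2 (0.03). The 3 h arrays chose these probe sets, so their size at 3 h is no finding, and the fit shares its variance over all arrays. The difference between the effects at 3 h and 1 h was called for 0 of the 102, with 54 at an unadjusted p under 0.05 (6.15% of all).

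The largest at 1 h among them was a probe set of Ugcg, 1421269_at, at 61.8, 26.2 and 32.5 with EB and 93.6, 74.3 and 83.9 with oil (-1.16, standard error 0.33, adjusted p = 0.30 from limma, and -1.96 at 3 h). A probe set of Trim35 read 90.3, 65.1 and 65.6 against 129.7, 123 and 154 (-0.89 at 1 h and -1.13 at 3 h), and that of Zfhx3 was at -0.88 and -0.89. Probe set 1448541_at of Klc1, a light chain of the kinesin motor, read 479, 417 and 306 against 705, 672 and 697 (-0.81, standard error 0.17, adjusted p = 0.099, and -1.49 at 3 h). In each of these 4, every EB array was below every oil array. Dyrk1a, a protein kinase gene, was at -0.67 (134, 108 and 99.8 against 181, 176 and 183), Ppp1r12a, a myosin phosphatase subunit gene, at -0.66, Prkar2a, a regulatory subunit of protein kinase A, at -0.74, B230219D22Rik at -0.61 and Golph3, a Golgi protein gene, at -0.34.

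Other probe sets of the same genes were nearer to 0: 209 of them had a median of -0.03 (SD 0.15) at 1 h, with 9 lower at an unadjusted p under 0.05. Klc1 shows the contrast, with its brightest probe set at 4141, 4734 and 4216 against 5176, 4313 and 3803 (-0.01) and 1428881_at at -0.19. The median mean signal of the 102 was 152, and of the other 209 it was 531. Within the 1 h arrays, the mean centred log2 level of the 102 was 0.39, 0.22 and 0.19 with EB and 0.59, 0.58 and 0.60 with oil. The 3 oil values were nearly equal and every EB value was below them. This level also moved with time in the oil group, from 0.59 at 1 h and 0.51 at 3 h to -0.56 at 12 h and 0.18 at 24 h.

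**Figure D5:**
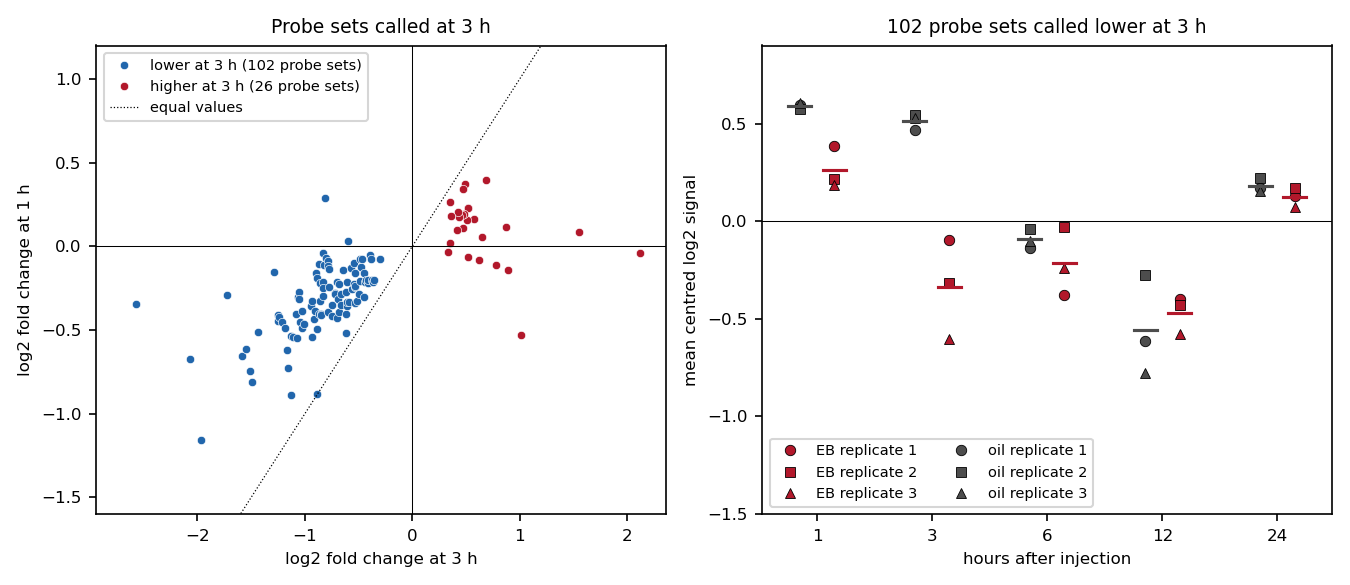
Left, log2 fold change at 1 h (y axis) against that at 3 h (x axis) for the 128 probe sets called at 3 h, with the dotted line at equal values. Right, the mean centred log2 level of the 102 probe sets called lower at 3 h (y axis) in each of the 30 arrays against hours after injection, with red for EB, grey for oil and bars at group means. Of the 102, 100 lie below 0 at 1 h, and at 1 h the EB arrays (0.19 to 0.39) lie below the oil arrays (0.58 to 0.60).

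The 26 probe sets called higher at 3 h (0.0962% of all) stood on both sides of 0 at 1 h, with 19 above 0 (73.1%, against 56.3% of all probe sets), 7 higher at an unadjusted p under 0.05 (5.37% of all) and a median of 0.14, or 0.04 without scaling. Mpeg1, a pore-forming protein of macrophages, read 76.2, 86.0 and 89.7 with EB and 58.4, 75.03 and 59.0 with oil (0.40, adjusted p = 0.47 from limma, and 0.68 at 3 h), without overlap. Snrnp48, a spliceosome component gene, was at 0.09, against 1.55 at 3 h, and its arrays overlapped (81.6, 93.0 and 111 against 101, 94.4 and 74.1). Cxcl1, a chemokine gene, was at -0.14 and Akr1b10 at -0.11, while Iqsec2 was at 0.11 and Pitpnc1 at 0.06. Over all 27022 probe sets, the effects at 1 h and 3 h, which share no mice, had a Pearson r of 0.17 across probe sets, which are not independent.

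The effect of EB at 1 h was also tested directly against that at each later time. Against 3 h, 6 h and 12 h the difference passed for 0 probe sets in limma, with 1662 (6.15%), 2092 (7.74%) and 2171 (8.03%) at an unadjusted p under 0.05, and against 24 h it passed for 269 (0.995%), 32 of them higher and 237 lower at 24 h than at 1 h. The smallest adjusted p against 3 h among genes with a symbol was 0.084 for Fbxo36, whose effect went from -0.61 at 1 h to 0.23 at 3 h, followed by 0.32 for Pisd-ps3 (1453145_at), from -1.73 to 0.66. Snhg1, a host gene of small nucleolar RNAs, read 90.8, 135 and 94.7 with EB and 169.9, 159 and 169.5 with oil by 1437658_a_at (-0.66, standard error 0.20, adjusted p = 0.33), and differed from its effect at 24 h by 1.34. Another probe set of Snhg1, 1439399_a_at, was also measured, so these values are those of a single probe set.

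The genes that the study followed by name had no call at 1 h in this fit. The paper reports significantly lower Tmed2, Klc1 and Nedd4 with EB at this time, by ANOVA of each gene. The paper tested signal intensities, with a Bonferroni test after the ANOVA, while limma used scaled log2 signals. A call here also needs an adjusted p under 0.05 over all 27022 probe sets. The p-values below are thus from a different test on a different scale. The unadjusted p from limma was 5.8e-05 for Klc1 (1448541_at), 0.0041 for Nedd4 (1451109_a_at) and 0.14 for Tmed2 (1420867_at), each lower without overlap. Nedd4, a ubiquitin ligase gene, was at -0.39 by 1451109_a_at (781, 663 and 637 with EB and 985, 871 and 864 with oil, adjusted p = 0.34 from limma) and at -0.01 by its brightest probe set. Tmed2, a protein of vesicle transport, shares its 6 probe sets with Gm10698 in the annotation, and 1431036_a_at read 552, 506 and 506 against 628, 632 and 665 (-0.30, adjusted p = 0.48), without overlap. The other Tmed2 probe sets ran from -0.32 (1420867_at) to -0.04 (1436451_a_at), with 1420868_s_at at -0.22, 1455968_x_at at -0.08 and 1436452_x_at at -0.06. Vtn, the vitronectin gene, read 739.5, 554 and 726 against 484, 493 and 462 (0.48, adjusted p = 0.57), without overlap. Fn1, Apod and Igf2 were at 0.39, 0.41 and 0.31 by their brightest probe sets, with groups that overlapped. Meis2, at 249, 314 and 286 against 186, 189.7 and 259 by 1417129_a_at, overlapped between groups (0.43, standard error 0.73), and Neurod6 was at -0.24 (standard error 0.71).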

How the data were processed

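Total RNA of 1 hypothalamus per array was hybridised to GeneChip Mouse Genome 430 2.0 arrays, and the authors made signal intensities with MAS5 (version not given in the sources used here), which were deposited as linear intensity values for 45101 probe sets. These intensities were scaled so that each array median equalled the mean of the medians (41.3), set to at least 1 and taken to log2. The 64 control probe sets and the dimmest 40% (mean signal under 21.9) were left out, which kept 27022. Groups followed the sample titles. limma 3.58.1 in R 4.3.3 fitted all 30 arrays as 10 groups of 3 (eBayes with trend, 20 residual degrees of freedom), with Benjamini-Hochberg adjustment over all kept probe sets at 0.05. Single values were compared by exact permutation (scipy 1.17.1). The number of arrays limits the precision. The fit was tested on simulated data.

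Gene names came from the platform annotation (34945 probe sets with 1 symbol, 932 with several, 9160 with none), and in lists each gene stood by its brightest kept probe set. MAS5 subtracts mismatch signals, so dim values vary strongly, and probe sets of near-identical genes share signal. Named were every probe set that passed, up to 15 genes in each direction with the largest log2 fold change among those with an unadjusted p under 0.01 and no overlap between groups, up to 4 members of each list by unadjusted p with Pgr, Greb1, Esr1, Fos, Egr1, Npas4 and Fkbp5, the genes the study followed, and up to 6 genes each way with the largest change at 3 h or smallest adjusted p in the difference from 3 h. Sgk1 was also picked by rule, but its values are not printed. Other members and probe sets that are named, such as Jun, Lhx8, Hmx2, Dlx2, Btg2, Dusp1, Maff, Mpeg1 and the Pisd family, were chosen after their values were seen. The comparison, members and lists were chosen with earlier results of these data known. One gene that the study followed is not reported here. Alternatives changed the scaling, floor, filter, weights, moderation, test, arrays in the fit, replicate block and each replicate in turn.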

Additional observations from a re-analysis of the deposited data

Results flagged for a closer look

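For 21 probe sets named by the rules used here, the effect of EB at 24 h differed from that at 1 h in a test of the difference itself (limma, adjusted over all probe sets kept, in other mice at 24 h), among 269 that did so (0.995%). Genes with higher values at 1 h had lower ones at 24 h, which the way they were chosen partly fixed. Many were named for their values at 1 h, and the difference reuses those values. For Ang the effect was 0.96 at 1 h and -0.31 at 24 h. For Ptgds the 24 h effect minus the 1 h effect was -4.58 by 1423859_a_at and -5.36 by 1423860_at (adjusted p = 0.011 and 0.012), for Aldh1a1 -3.37 (0.0070), for Lum -2.52 (0.015), for Apod -2.34 (0.020), for Islr -2.28 (0.012), for Cxcl12 -2.25 (0.028), for Igf2 -2.16 (0.016) and for Fn1 -1.54 (0.041). For Vtn it was -1.52 by 1420484_a_at and -1.58 by 1455098_a_at (adjusted p = 0.018 and 0.028 from limma), for Ang -1.26 (0.012), for Aqp4 -0.97 (0.035), for Meg3 -0.60 (0.0083), for Rpl13a -0.49 (0.019) and for Stmn2 -0.44 (0.025). The effect was -4.17 at 24 h for Ptgds (1423859_a_at) and -1.70 for Aldh1a1.

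In the other direction, the difference was 2.63 for 1454566_at (adjusted p = 0.017 from limma), 1.55 for Atg12 (0.042), 1.35 for Cabin1 (0.0045), 1.34 for Snhg1 by 1437658_a_at (0.019) and 0.75 for Fbxo36 (0.013). Cabin1 was at -0.86 at 1 h and 0.48 at 24 h, and Atg12 at -1.02 and 0.53. Fbxo36 was at -0.61 and 0.14, and 1454566_at at -2.42 and 0.21, so most of their differences is the value at 1 h.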

How the results depend on the processing

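The number of probe sets called at 1 h was 1, and it was 4 with a trimmed mean or quantile normalization, 47 with array weights (25 higher and 22 lower), 2 without a variance trend, 3 without a filter and 8 with the 6 arrays of 1 h alone. It was 0 with log2(signal + 16), with the lowest 60% left out, with robust moderation and in the methods' test. In the methods' test, 321 had a p under 0.05 after Bonferroni correction over the times and before adjustment over probe sets. Leaving out each array gave 0 to 10 calls. Fbxo36 was called in 6 alternatives and Cabin1 in 5. The difference between 1 h and 3 h was called for 1 probe set without a trend and for 0 to 2 when each array was left out. Probe sets at 2-fold or more numbered 15 without scaling, 1755 without a filter, 3 with the lowest 60% left out and 27 to 46 without each array, and those at 0.5-fold or less 19, 1987, 4 and 14 to 33. The cause was not tested. The median at 1 h of probe sets called lower at 3 h was -0.40 without scaling and -0.35 to -0.27 without each array, and that of those called higher 0.11 with a trimmed mean or quantile normalization, 0.040 without scaling, 0.16 with the lowest 60% left out and 0.11 to 0.15 without each array. The estrogen-responsive median was -0.11 without scaling, 0.021 with the lowest 60% left out, -0.044 after quantile normalization, 0.039 over all probe sets and -0.03 to 0.02 without each array, so its sign is not settled. Hypothalamic transcription factors were at -0.30 without scaling, -0.17 with the lowest 60% left out and -0.23 to -0.16 without each array, and astrocyte markers at 0.13 without scaling and 0.18 to 0.28. Without each array the immediate early median was 0.09 to 0.26, the microglial 0.47 to 0.64 and the leptomeningeal 0.29 to 0.58. Of 3450 values of 207 named probe sets, 3426 kept their sign, and the 24 that did not came from 11 probe sets with a log2 fold change of at most 0.25 in size.

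With the replicate number as a block, 2 probe sets were called at 1 h. Deviations of same-numbered EB and oil arrays correlated at 0.03, 0.02 and 0.05, each highest with its own number but under 0.1, so the numbers were not taken to pair the samples. Signals near the filter limit what can be seen, and the median standard error of 0.15 on the log2 scale leaves small changes below detection with 3 mice a group.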
